A study of Mus musculus with 12 samples.

Results

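In mouse embryonic stem cells (mESCs), 423 peaks of Ctr9 carried RNAPII phosphorylated on serine 5 (Ser5p) without an H3K27ac peak. They were chosen from the Ctr9 peak list of mESCs as the peaks that overlapped a Ser5p peak by at least 1 bp and no H3K27ac peak of mESCs or NIH3T3 cells and no Ctr9 peak of NIH3T3 cells. The list held 44748 Ctr9 peaks, of which 2505 met a Ser5p peak, 758 of those met no H3K27ac peak of mESCs, 587 met none of either line, and 423 also met no Ctr9 peak of NIH3T3 cells. The regions were thus 0.945% of all Ctr9 peaks and 16.9% of those with Ser5p. Because Ctr9, Ser5p and H3K27ac calls chose the regions, their values in those lists are given below as a description only.

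The study mapped Ctr9 by ChIP-seq in E14TG2a mESCs and in NIH3T3 cells, an established line of mouse embryonic fibroblasts, and compared it with enhancer and RNAPII marks. Ctr9 was tagged with GFP at its own locus, in pools of sorted cells rather than single clones, and pulled down with an antibody against GFP in both lines. The tagged NELFA was a GFP fusion carried by a transgene in mESCs, and Ser5p, RNAPII phosphorylated on serine 2 (Ser2p), and H3K27ac were pulled down with antibodies against these marks. By the paper's account, Ser5p was mapped in the NELFA-tagged mESCs, and a later passage names mESCs alone for Ser2p and Ser5p. The Ctr9 and Ser5p lists thus came from differently modified cells by that account. RNA-seq was made from both lines. Both lines grew in the same medium with serum and LIF, neither was treated, and each group was 1 library. No value therefore has a replicate, the intervals given are 95% exact Clopper-Pearson intervals for shares and order-statistic intervals for medians, and they cover counting error only. The peak lists hold no read counts, so ChIP-seq depth is unknown, while RNA-seq totals were 26400407 estimated counts for mESCs and 28849497 for NIH3T3 cells.

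As background, Ctr9 is a core subunit of the Paf1 complex (Paf1C), which travels with RNAPII and takes part in the release of paused polymerase and in elongation. Ser5p marks RNAPII early in transcription and Ser2p marks elongating RNAPII toward the ends of genes, whereas NELF, of which NELFA is a subunit, holds RNAPII in the paused state. H3K27ac is a mark of active enhancers and promoters. RNAPII with Ser5p is also known at enhancers, where it makes short transcripts.

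The labels of the RNA libraries were checked against marker genes. Pou5f1, Sox2, Nanog, Esrrb and Zfp42 had 211 to 1402 TPM (transcripts scaled for length and library size) in mESCs and at most 0.511 TPM in NIH3T3 cells. Col1a1, Col1a2, Col5a1, Thy1 and Pdgfrb had 39.6 to 1082 TPM in NIH3T3 cells and at most 5.69 in mESCs. Of the markers of other lineages, the endoderm genes Gata4, Gata6 and Sox17 and the neural genes Pax6, Sox1 and Nes were at 2.21 TPM or less in mESCs, Cdx2 was listed at 0, and Krt8 was at 39.2 TPM. How far cells of other types contributed to the peaks was not tested.

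The stretch of DNA under the Ctr9 summit is shown for 5 regions, as 201 bases of the plus strand of GRCm38 (mm10), 100 bases on each side of the summit. The first 4 are the regions of highest Ctr9 fold enrichment near a gene start, near a gene end, in a gene body and outside genes whose window touched no annotated UTR, and the last was chosen after its values were seen. Capitals mark matches, on either strand, to 10 searched motifs, which are the TATA box letters TATAAA, the CCAAT box, the GC box core GGGCGG, the ETS site CCGGAAG, the E-box CACGTG, the cAMP response element TGACGTCA, the palindromic NRF1 motif, the octamer ATTTGCAT, the Esrrb site TCAAGGTCA and the poly(A) signal AATAAA. The windows are chr13:21753093-21753293 at Hist1h2ak, chr7:126851238-126851438 near the end of Ino80e, chr17:37011766-37011966 in Mog, chr7:144866156-144866356 beyond the end of Fgf4, and chr9:65201280-65201480 in an intron of Parp16, which met the Ser5p peak of highest fold enrichment. Hist1h2ak is so short that its window, though within 1 kb of the start and placed there by the order of the rule, lies past the gene end, with the summit 242 bps from the end and 634 bps from the start.
Hist1h2ak: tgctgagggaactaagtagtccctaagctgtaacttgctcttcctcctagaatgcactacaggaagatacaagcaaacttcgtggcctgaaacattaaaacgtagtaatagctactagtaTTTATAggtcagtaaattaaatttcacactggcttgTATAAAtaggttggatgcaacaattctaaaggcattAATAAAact
Ino80e: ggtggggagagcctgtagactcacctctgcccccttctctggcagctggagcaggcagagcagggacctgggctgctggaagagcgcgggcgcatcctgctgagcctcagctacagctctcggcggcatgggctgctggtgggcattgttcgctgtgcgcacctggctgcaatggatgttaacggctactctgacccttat
Mog: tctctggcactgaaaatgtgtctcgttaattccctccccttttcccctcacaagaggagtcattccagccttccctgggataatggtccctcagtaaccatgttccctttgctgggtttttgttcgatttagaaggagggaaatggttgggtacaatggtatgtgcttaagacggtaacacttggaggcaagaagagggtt
Fgf4: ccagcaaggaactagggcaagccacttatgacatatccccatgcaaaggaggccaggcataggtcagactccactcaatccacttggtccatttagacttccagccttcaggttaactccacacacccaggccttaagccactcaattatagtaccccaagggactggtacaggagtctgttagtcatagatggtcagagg
Parp16: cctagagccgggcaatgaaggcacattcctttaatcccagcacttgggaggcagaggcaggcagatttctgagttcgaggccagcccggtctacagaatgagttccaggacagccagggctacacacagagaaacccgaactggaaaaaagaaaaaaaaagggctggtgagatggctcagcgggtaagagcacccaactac
Matches were present in the Hist1h2ak window alone, with TATAAA at 2 places and AATAAA at 1. GC content ranged from 36.3% in the window of Hist1h2ak to 63.2% in that of Ino80e. In the Parp16 window, 93.5% of the bases were marked as repeats in the RefSeq genome sequence, against 0 to 22.4% in the other 4.

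The regions were wide and strong for Ctr9 peaks. Their width had a median of 1240 bps (interval 1052 to 1418, range 200 to 12708), against 391 bps for all Ctr9 peaks. Ctr9 fold enrichment, the pileup at the summit over the local background, had a median of 5.66 (5.27 to 6.09, range 2.05 to 31.9), against 3.71 in the whole list. The Ser5p peaks that they met had a median fold enrichment of 4.66 (4.55 to 4.81) and reached 28.6. The rule asked for a Ser5p peak, and wide Ctr9 peaks meet other peaks more often, so these values describe the choice and test nothing.

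The regions were not independent of each other, whereas the intervals treat each peak as independent and can therefore be too narrow. They met 525 Ser5p peaks, 11.7% of the 4490 in that list, and 87 regions met more than 1. When regions within 10 kb of each other were joined they formed 315 groups, of which 68 held at least 2 regions and the largest held 5. The summit of Ctr9 lay inside a Ser5p peak in 253 regions (59.8%). A peak is counted where it overlaps a region, and its own summit can lie outside. The strongest Ser5p peak had its summit inside the region in 329 cases (77.8%, 73.5 to 81.7), in all 83 regions above 3 kb but in only 47 of the 97 of up to 500 bps. The distance between the 2 summits had a median of 192 bps (174 to 218) and an interquartile range of 75 to 366 bps. Read along the gene, the Ctr9 summit was downstream of the Ser5p summit in 19 of 39 regions near starts, 88 of 158 in gene bodies (55.7%, 47.6 to 63.6) and 32 of 70 near ends, so no side was favoured beyond counting error.

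H3K27ac peaks were often close by. The nearest H3K27ac peak of mESCs was a median of 2384 bps away (1941 to 2836), with 132 regions (31.2%, 26.8 to 35.9) at 1 kb or less and 356 (84.2%) at 10 kb or less. Among Ctr9 peaks with the same exclusions and no Ser5p these shares were 4.86% and 44.2%. Farthest from H3K27ac were 67 regions with no such peak within 10 kb. The nearest H3K27ac peak of NIH3T3 cells was a median of 6859 bps away and the nearest NIH3T3 Ctr9 peak 48024 bps away. H3K27ac peaks in the mESC list had a median width of 412 bps. The other 291 regions had no H3K27ac peak of mESCs within 1 kb.

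At the thresholds, the regions with the weakest Ser5p peaks lay in H13, Kat6b and Mycn, with −log10 q values of 2.02, 2.12 and 2.25. Just outside the rule lay Ctr9 peaks at Slc2a1, Zscan10 and Eif4a2, which met the exclusions and missed a Ser5p peak by 1, 2 and 5 bps. Altogether 33 Ctr9 peaks that met the exclusions came within 100 bps of a Ser5p peak without touching it.

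Each region was placed by its Ctr9 summit along protein-coding genes. Compared with all Ctr9 peaks, the regions lay less in gene bodies and more outside genes. Gene bodies, away from both ends by more than 1 kb, held 158 of the 423 summits (37.4%, 32.7 to 42.2), against 59.0% of all Ctr9 peaks. Another 70 (16.5%, 13.1 to 20.4) lay within 1 kb of a gene end, against 12.6%, and 39 (9.22%, 6.64 to 12.4) within 1 kb of a start, against 6.03%. Up to 10 kb outside a gene lay 81 (19.1%, 15.5 to 23.2), against 16.4%. Beyond 10 kb lay 75 (17.7%, 14.2 to 21.7), against 5.98%, which is the place where the share of the regions and that of the whole list were farthest apart as a ratio.

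The same places were compared in other sets of Ctr9 peaks. A set of 612 Ctr9 peaks met Ser5p and H3K27ac peaks of mESCs and, as the regions, no Ctr9 or H3K27ac peak of NIH3T3 cells, and is called the matched H3K27ac set. It was added after the data were seen. Of its summits, 7.68% (5.70 to 10.1) lay near starts, 3.92% (2.53 to 5.78) near ends, 31.4% (27.7 to 35.2) in bodies and 37.4% (33.6 to 41.4) beyond 10 kb. The regions thus lay more often near ends and less often beyond 10 kb than their matched counterparts with H3K27ac, with intervals that do not meet, while the shares near starts and in bodies had overlapping intervals. A wider set of 1747 Ctr9 peaks with Ser5p and H3K27ac of mESCs, not filtered on the NIH3T3 lists, had 37.0% (34.7 to 39.3) near starts, 8.13% (6.89 to 9.51) near ends and 16.4% (14.7 to 18.2) beyond 10 kb, so it differs from the regions in 2 ways. Of the 32448 Ctr9 peaks that met the same exclusions but no Ser5p peak, 63.4% (62.9 to 63.9) lay in gene bodies, 1.94% near starts and 5.51% beyond 10 kb.

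**Figure D1:**
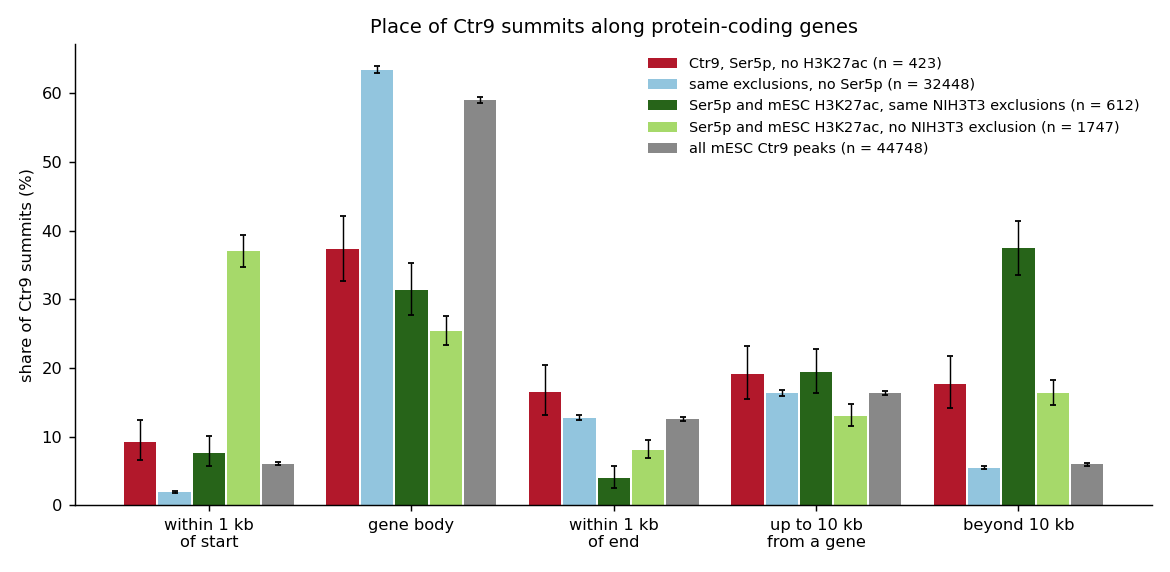
Share of Ctr9 summits (%, vertical axis) at each place along protein-coding genes for the 423 regions with Ser5p and no H3K27ac (red), Ctr9 peaks with the same exclusions and no Ser5p (blue), the matched H3K27ac set (dark green), the H3K27ac set without NIH3T3 exclusion (light green) and all Ctr9 peaks (grey). Bars start at 0 and lines are 95% exact intervals for counting error. The red bar is higher than the dark green near ends (16.5% against 3.92%) and lower beyond 10 kb (17.7% against 37.4%).

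Within gene bodies, 123 of the 158 summits (77.8%, 70.6 to 84.1) lay in introns, against 75.9% for all Ctr9 peaks and 90.1% (85.0 to 93.9) in the matched H3K27ac set. When each gene was cut into 4 equal stretches, the one next to the start held 52 (32.9%, 25.7 to 40.8) and the one next to the end 38 (24.1%, 17.6 to 31.5). All Ctr9 peaks ran the other way, with 16.5% next to the start and 34.4% next to the end, and the matched H3K27ac set had 29.7% and 22.9%. Of the 70 summits near a gene end, 49 (70.0%, 57.9 to 80.4) lay past the end, against 57.6% for all Ctr9 peaks, a share just below the interval, and 18 of 24 in the matched H3K27ac set. Of the 81 summits up to 10 kb outside a gene, 43 (53.1%, 41.7 to 64.3) were upstream of it, against 20.6% for all Ctr9 peaks, 19.9% without Ser5p under the same exclusions and 54.6% (45.2 to 63.8) in the matched H3K27ac set. The places also differed in Ctr9 itself, with median widths of 2861 bps near ends, 1181 near starts, 1116 in bodies, 1007 up to 10 kb away and 728 beyond, and median Ctr9 fold enrichments of 11.0 near ends and 4.46 beyond 10 kb.

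Ser2p, which the rule did not use, was present at 104 of the 423 regions (24.6%, 20.6 to 29.0), where 2.40% of all Ctr9 peaks had it. The share was 0.351% (0.290 to 0.422) in the set with the same exclusions and no Ser5p. It was 12.7% (10.2 to 15.6) in the matched H3K27ac set, below the regions with intervals that do not meet, and 26.5% (24.4 to 28.6) when the NIH3T3 lists were not used to filter that set. The 758 Ctr9 peaks with Ser5p and no mESC H3K27ac, also without that filter, had 36.7% (33.2 to 40.2), again above the H3K27ac set. Gene ends stood out among the places. There 48 of 70 regions had Ser2p (68.6%, 56.4 to 79.1), against 10 of 39 near starts (25.6%), 17 of 81 up to 10 kb away (20.99%), 24 of 158 in bodies (15.2%, 9.98 to 21.8) and 5 of 75 beyond 10 kb (6.67%, 2.2 to 14.9). Place by place, the matched H3K27ac set had 50.0% (29.1 to 70.9) near ends, 6.38% (1.34 to 17.5) near starts and 10.04% to 15.97% elsewhere, and at each place its interval overlapped that of the regions.

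Ser2p moved with the width of the Ctr9 peak. It was found at 1 of 97 regions of up to 500 bps, 2 of 86 between that and 1 kb, 34 of 157 above 1 kb and up to 3 kb (21.7%, 15.5 to 28.9) and 67 of 83 above 3 kb (80.7%, 70.6 to 88.6). Above 3 kb the share was 15.2% (11.5 to 19.6) without Ser5p under the same exclusions and 52.9% (42.8 to 62.9) in the matched H3K27ac set, and from 1 to 3 kb it was 9.05% (5.76 to 13.4) in that set, both below the regions with intervals that do not meet. The part of width in the Ser2p shares by place was not tested. Regions with Ser2p had a median Ctr9 fold enrichment of 12.2 (11.5 to 13.2), and those without it 4.80 (4.45 to 5.06), while their Ser5p fold enrichments were nearer, at 5.07 and 4.57.

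**Figure D2:**
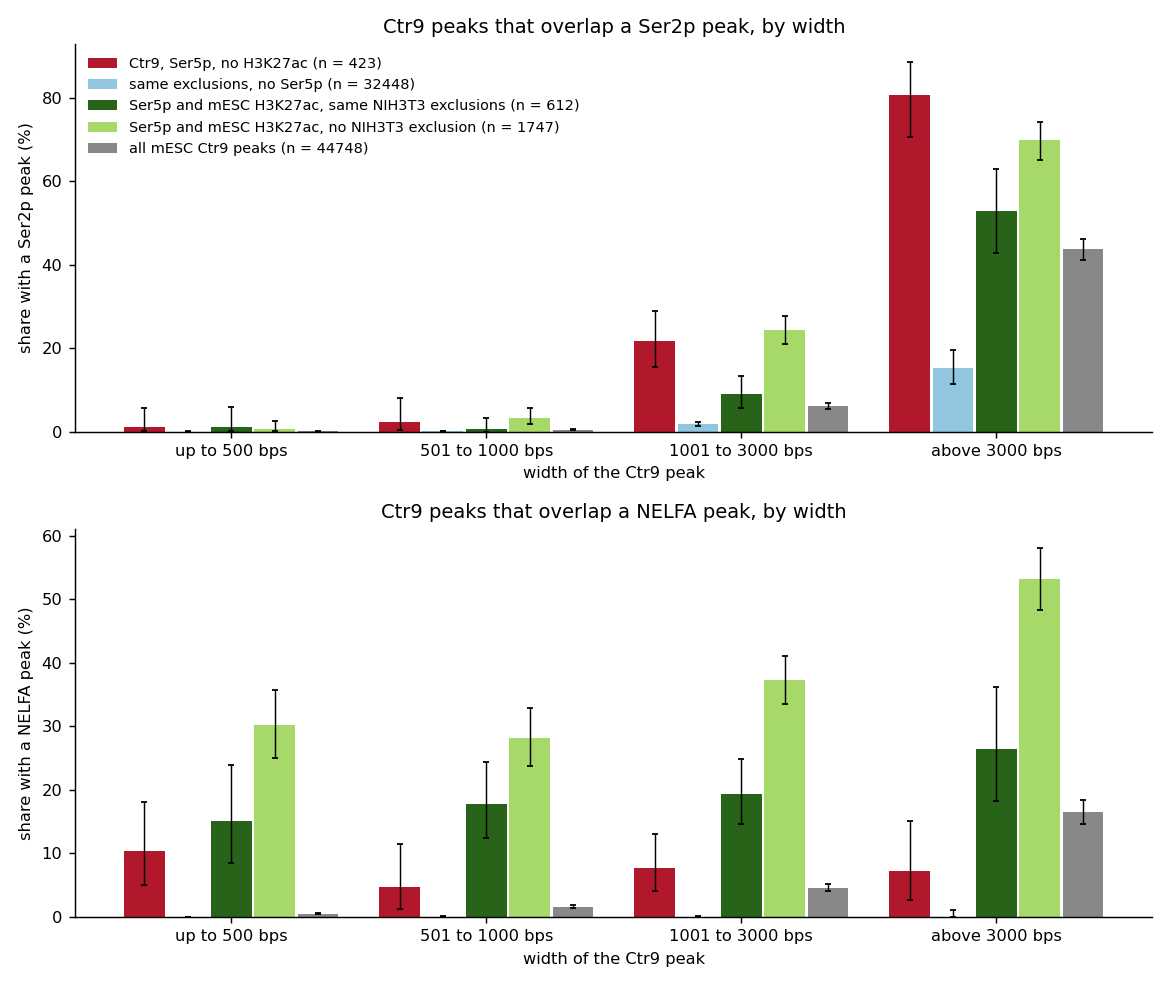
Share of Ctr9 peaks that overlap a Ser2p peak (top) or a NELFA peak (bottom), in % on the vertical axes, by the width of the Ctr9 peak in 4 classes. Colours mark the 5 sets named in the legend, bars start at 0, and lines are 95% exact intervals. The Ser2p share of the regions (red) goes from 1.03% in the narrowest class to 80.7% in the widest, while their NELFA share stays between 4.65% and 10.3%.

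NELFA was less common. It was present at 32 regions (7.57%, 5.23 to 10.5), against 1.82% of all Ctr9 peaks and 4 of the 32448 peaks with the same exclusions and no Ser5p (0.0123%). In the matched H3K27ac set the share was 19.4% (16.4 to 22.8), so the regions without H3K27ac had NELFA less often, with intervals that do not meet, and without the NIH3T3 filter that set had 37.8% (35.6 to 40.2). By place the shares of the regions were all below those of the matched set, but the intervals stood apart in bodies alone, where 7 of 158 regions had NELFA (4.43%, 1.80 to 8.92) against 17.2% (12.1 to 23.3). Near starts it was 7 of 39 (17.9%, 7.54 to 33.5) against 36.2% (22.7 to 51.5), and near ends 3 of 70 (4.29%, 0.893 to 12.02) against 20.8% (7.13 to 42.2). Up to 10 kb away it was 11 of 81 (13.6%, 6.98 to 23.0) against 21.01%, and beyond 10 kb 4 of 75 (5.33%, 1.47 to 13.1) against 17.03% (12.4 to 22.5).

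By width, the NELFA shares of the regions had overlapping intervals. The share was 10.3% (5.06 to 18.1) in regions of up to 500 bps and 7.23% (2.70 to 15.1) above 3 kb, and in the matched H3K27ac set it was 15.1% (8.48 to 24.0) and 26.5% (18.2 to 36.1) in the same classes. Regions with NELFA had stronger Ser5p peaks, with a median fold enrichment of 8.12 (5.42 to 11.0) against 4.58 (4.46 to 4.69) without it. Both Ser2p and NELFA were present at 8 regions, and 295 (69.7%, 65.1 to 74.1) had neither. Ser2p also differed with the distance to H3K27ac. It was at 11 of the 132 regions within 1 kb of an mESC H3K27ac peak (8.33%, 4.23 to 14.4) and at 29 of the 67 beyond 10 kb (43.3%, 31.2 to 56.0). NELFA was at 14 (10.6%, 5.92 to 17.2) and 2 (2.99%, 0.364 to 10.4), with intervals that overlap. These groups also differed in place, with 5.30% (2.16 to 10.6) and 23.9% (14.3 to 35.9) of their summits near gene ends. The part of place in the Ser2p difference was not tested.

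**Figure D3:**
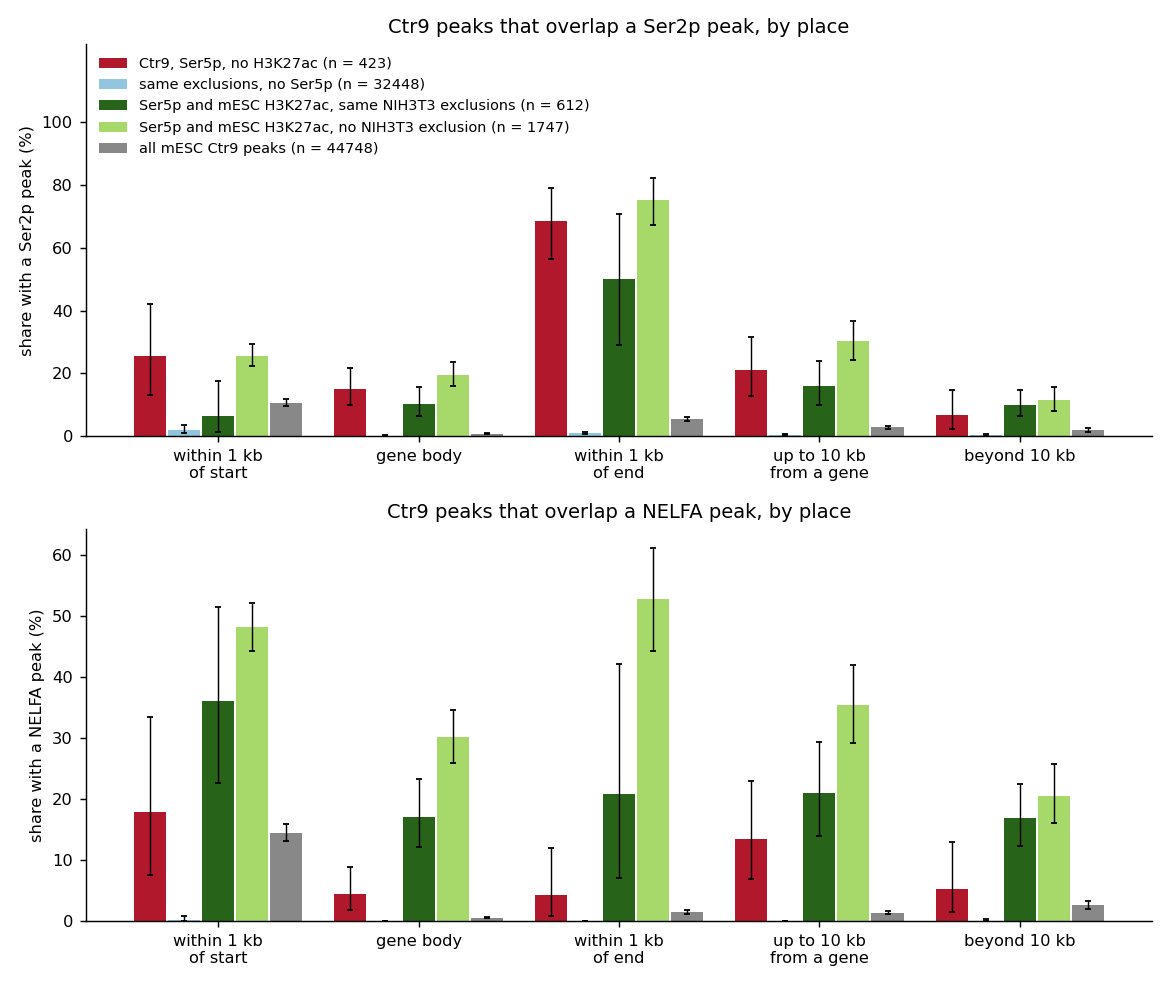
Share of Ctr9 peaks that overlap a Ser2p peak (top) or a NELFA peak (bottom), in % on the vertical axes, by the place of the Ctr9 summit. Colours mark the 5 sets named in the legend, bars start at 0, and lines are 95% exact intervals. For Ser2p the regions (red) and the matched H3K27ac set (dark green) are both highest near gene ends (68.6% and 50.0%), while for NELFA the red bar is below the dark green at all 5 places, with overlapping lines except in bodies.

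Individual regions showed these combinations. Those with the highest Ctr9 fold enrichment were wide, and the first 8 all had Ser2p. The first (31.9, width 7713 bps) had its summit in Mog, a myelin gene at 0.0610 TPM, but also covered the end of Zfp57, a KRAB zinc-finger gene that keeps imprints. Zfp57 had 106 TPM in mESCs and 25.5 in NIH3T3 cells, and the region had Ser5p at 11.8, Ser2p at 5.95 and NELFA at 4.72. Beyond the end of Fgf4, a growth factor gene, Ctr9 reached 30.2, Ser5p 10.6 and Ser2p 8.84 in 6318 bps, and the nearest H3K27ac peak was 3461 bps away. At Zfp42 (Rex1, a pluripotency marker) the region was the widest, 12708 bps, and ran from inside the gene past its end, with Ctr9 at 30.1, Ser5p at 10.7, Ser2p at 11.7 and NELFA at 4.47.

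Shmt2, the mitochondrial serine hydroxymethyltransferase, had a region of 3849 bps with its summit past the gene end, with Ctr9 at 27.6, Ser5p at 6.70 and Ser2p at 5.81. The transcript levels of Shmt2 were alike, 110.0 TPM in mESCs and 129 in NIH3T3 cells. The region also touched Ndufa4l2, and its summit lay in a protein-coding exon outside Shmt2. Esrrb, an orphan nuclear receptor of the pluripotency network, had a region 3995 bps outside the gene with Ctr9 at 24.7, Ser5p at 4.37 and Ser2p at 7.18, and no H3K27ac within 20268 bps. L1td1, which codes for an RNA-binding protein of mESCs, had 12571 bps with Ctr9 at 24.0, and Ctsa, a lysosomal protease gene, 7984 bps with Ctr9 at 23.7. These 4 regions had Ser2p and no NELFA. The Ctsa region also touched Pltp. Pltp had 83.8 TPM in mESCs and 2.77 in NIH3T3 cells, and Ctsa 43.5 and 55.0.

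The strongest Ser2p peaks were met by regions whose Ctr9 summits lay past the ends of Lefty2 (12.5), which codes for an inhibitor of Nodal signalling, and Upf1 (12.4), the helicase of nonsense-mediated decay, followed by Ctsa (11.9), Zfp42 (11.7), the Lefty2 neighbour Lefty1 (11.1) and Mogs (9.30), a glucosidase gene. Upf1 had 41.1 TPM in mESCs and 20.3 in NIH3T3 cells, and Mogs 13.3 and 31.5. Lefty1 and Lefty2, in contrast, had 201 and 246 TPM in mESCs and were listed at 0 in NIH3T3 cells. The region of Upf1 also touched Cers1 and Gdf1, and that of Mogs touched Wbp1.

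The regions that met the strongest Ser5p and NELFA peaks were mostly of another kind, narrow and with little Ctr9, and the 4 described here lay beside the summits of those peaks. In an intron of Parp16, a region of 402 bps with Ctr9 at only 2.88 met a Ser5p peak of 28.6, with its summit 111 bps outside the region, and a NELFA peak of 21.03, 27 bps outside. It ended 83 bps from the U5 snRNA gene Rnu5g and lay 121 bps from an H3K27ac peak, and its sequence is the one shown above as mostly repeat. At Rcc1, the exchange factor of Ran, a region of 346 bps with Ctr9 at 2.99 met the edge of a Ser5p peak of 18.5 whose summit was 3324 bps away, and a NELFA peak of 10.2 with its summit 263 bps away, 943 bps from the snoRNA gene Snora73a and 218 bps from H3K27ac. A region of 286 bps 6218 bps from Zc3h11a, a zinc-finger gene, had Ctr9 at 2.96 and met peaks of Ser5p (15.6) and NELFA (11.7) with summits 185 and 202 bps outside it. In Bicral, which codes for a subunit of a BAF complex, a region with Ctr9 at 4.87 met a Ser5p peak of 17.7 with its summit 1490 bps outside, and no NELFA peak. Repeat sequence filled more than 50% of the 301 bases around the summit in 57 regions (13.5%, 10.4 to 17.1), against 10.8% of all Ctr9 peaks.

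Some histone genes had strong Ctr9 as well. At Hist1h1a, which codes for a linker histone, Ctr9 was at 31.3, Ser5p at 28.2, NELFA at 30.5 and Ser2p at 6.23 in 1675 bps that span the whole short gene and run past its end, with the Ctr9 summit 8 bps before the end and H3K27ac 1310 bps away. Hist1h2ak, whose window is shown above, had Ctr9 at 23.5, Ser5p at 13.4, NELFA at 5.77 and Ser2p at 5.26. Both counted as near a start, as did 2 more of the 39 such regions that were also within 1 kb of the end of the same gene. Hist1h4f had Ctr9 at 4.16 in a region that met a Ser5p peak of 20.3 with its summit 568 bps outside, and Hist1h3c had Ctr9 at 5.59 and Ser5p at 3.43, both without NELFA or Ser2p peaks. Transcript levels of these 4 genes were 0.605 to 5.47 TPM in mESCs. Histone genes of the clusters are near-identical copies that can share reads, so both peaks and TPM of these genes are uncertain.

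Of the other genes with strong NELFA, Tdgf1 (Cripto, a Nodal coreceptor) had 8.60 at its start and Arc, an immediate early gene, 7.89 at its start. Arc had 10.9 TPM in mESCs and 0.653 in NIH3T3 cells.

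Genes of pluripotency were common among the genes at or nearest to the regions. Of a list of 34 pluripotency genes, 22 (64.7%) had at least 1 region, against 1.43% of all protein-coding genes, and together they had 44 of the 423 regions. Since 32 of the 34 genes had some Ctr9 peak, and the list was drawn up with earlier results of these data known, this count describes the regions and is no independent evidence. Of the 34, 29 had a Ctr9 peak with Ser5p, and 23 had one that met both Ser5p and H3K27ac of mESCs, not filtered on the NIH3T3 lists. Peaks with H3K27ac were thus at about as many of these genes as the regions. Of all protein-coding genes, 1610 had a Ctr9 peak with Ser5p, and 313 of these had a region. A list of NIH3T3 cells met such a peak at 10 of the 29 pluripotency genes, against 1155 of the 1610. The rule left out peaks met by those lists, so the count is not independent of it, and its part was not tested. Tdgf1 had 3 regions, from 2383 bps past the gene end to the gene start, with Ctr9 at 18.04, 20.4 and 14.2 and Ser2p at 6.65, 8.97 and 4.05. A further region between Tdgf1 and its neighbour Lrrc2, with Ctr9 at 3.74, was nearer to Lrrc2 and is counted there. Tdgf1 had 784 TPM in mESCs and was listed at 0 in NIH3T3 cells.

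Pou5f1 (Oct4), at 1402 TPM, had a region of 940 bps just upstream of its start, which met a Ser5p peak of 10.7 with its summit 1047 bps outside, and another of 3996 bps in its body with Ser5p at 6.96, and neither had Ser2p or NELFA. Nanog had 3 regions with Ctr9 of 3.74, 6.06 and 4.67, of which the middle one, in the gene body, had NELFA at 5.79. Lefty2 had 3 and Tet1, a DNA demethylase gene, had 4, all in its body and on a super-enhancer (SE), with Ctr9 of 4.45 to 7.85 and no Ser2p or NELFA. Sox2 had a region 1502 bps and another 108400 bps away, with Ctr9 of 4.03 and 3.21. Klf4, Klf5, Nr5a2 and Dppa3 had regions only beyond 10 kb, from 31946 to 48972 bps away, with Ctr9 of 2.93 to 8.53. Dppa5a, a gene of early embryos at 3190.4 TPM, had a region past its end with Ctr9 at 12.2, Ser5p at 13.04, Ser2p at 6.84 and NELFA at 3.31.

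The other lists gave little. Of 30 genes of elongation and pausing, which include those of Paf1C and NELF, and of 26 genes of RNA processing, none had a region (exact upper bounds 11.6% and 13.2%, which hold the 1.43% of all protein-coding genes), although 27 and 24 had a Ctr9 peak. Of the 30, 5 had a Ctr9 peak with Ser5p, and all 5 had one that met a list of NIH3T3 cells. Of the 26 RNA processing genes, 20 had a Ctr9 peak with Ser5p, and all 20 had one that met H3K27ac of mESCs and one that met a list of NIH3T3 cells, which the rule leaves out. Of 104 genes of translation, Rps13 alone had a region, 5217 bps from the gene, with Ctr9 at 17.2 and Ser2p at 5.54, and 64 had a Ctr9 peak with Ser5p. Of 67 replication-dependent histone genes, 36 had such a peak and 4 had a region.

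**Figure D4:**
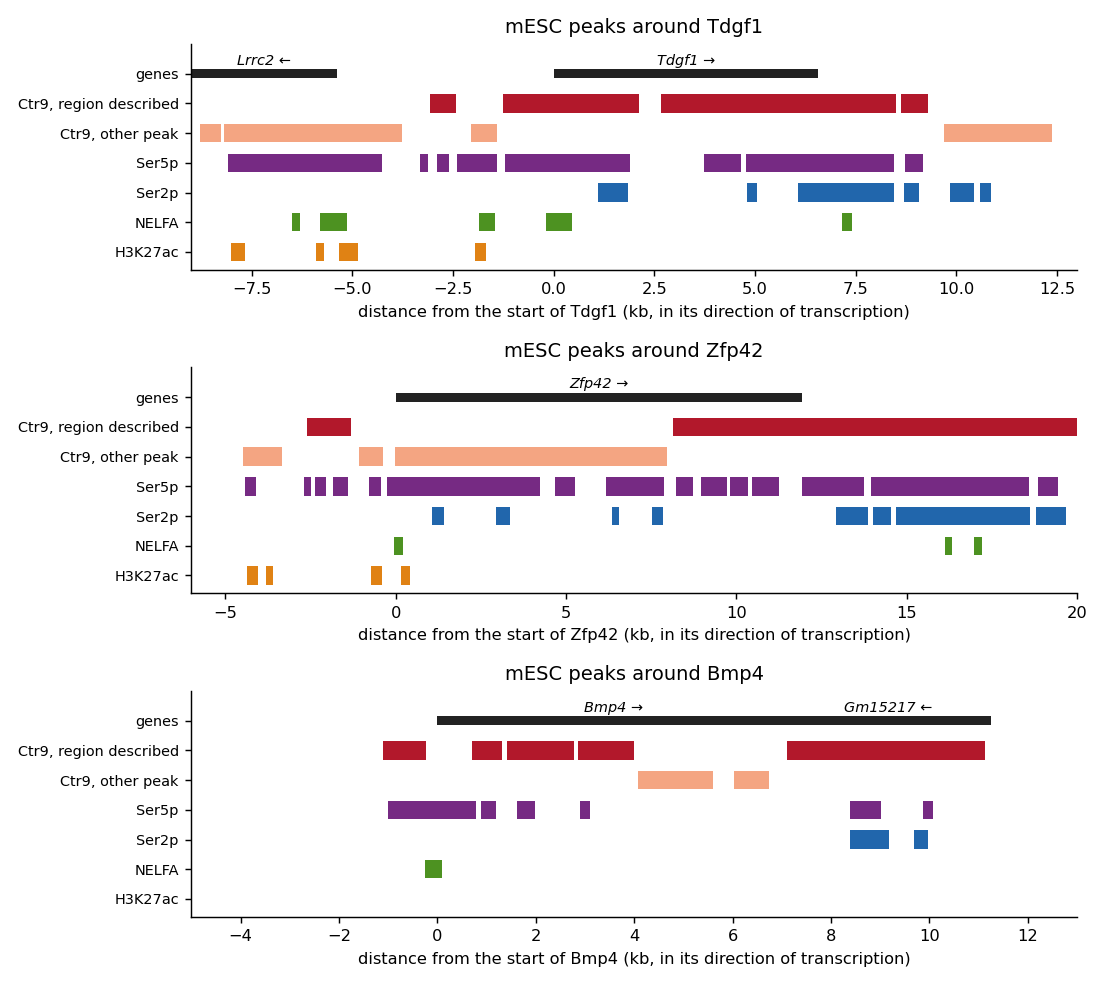
Peaks of mESCs around Tdgf1, Zfp42 and Bmp4, with the distance from the gene start in kb in the direction of transcription on the horizontal axis and 1 row each for genes (black), the Ctr9 regions described here (red), other Ctr9 peaks (light red), Ser5p (purple), Ser2p (blue), NELFA (green) and H3K27ac (orange). Bars span the called peaks and their height has no scale. Wide regions with Ser2p lie at the ends of Tdgf1 and Zfp42, and no H3K27ac peak is in view at Bmp4.

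Some genes had runs of regions, which share Ser5p peaks in part and count as 1 locus each. Bmp4, a growth factor gene of the TGF-beta family at 120 TPM in mESCs and 0.0735 TPM in NIH3T3 cells, had 5 regions from its start to past its end, all at least 6406 bps from H3K27ac. Of these, the region upstream of the start had NELFA (5.96) and the one at the end had Ser2p (4.11).

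Usp7, a deubiquitinase gene at 116 and 32.4 TPM, had 5 regions in its body with Ctr9 of 3.36 to 9.41 and no Ser2p or NELFA. Bicral also had 5, the widest 7688 bps, with Ctr9 of 3.07 to 9.26. Fzd5, a Wnt receptor gene at 42.2 and 4.09 TPM, had 4 regions along its body and end, of which 1 had Ser2p (5.08). Nlrp12, an innate immune gene near 0 in both lines (0.0366 and 0.0170 TPM), was the nearest gene of 4 regions on a SE, 4520 to 15432 bps away, so the nearest gene need not be the one a region belongs to.

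SEs are clusters of strong enhancers near cell identity genes, and 231 of them are listed for mESCs with the study. Regions overlapping a SE numbered 74 (17.5%, 14.0 to 21.5), against 1.81% of all Ctr9 peaks. They lay on 47 SEs (20.3%). The share was 1.16% with the same exclusions and no Ser5p, and 26.8% (23.3 to 30.5) in the matched H3K27ac set, above the regions with intervals that do not meet. Without the NIH3T3 filter that set had 11.8% (10.4 to 13.5). Ctr9 peaks with Ser5p and no mESC H3K27ac, also without that filter, had 86 of 758 (11.3%, 9.18 to 13.8), with overlapping intervals. The difference between these shares thus depends on that filter. By place the share of the regions was highest beyond 10 kb, where 24 of 75 regions were on a SE (32.0%, 21.7 to 43.8), and lowest near ends, with 3 of 70 (4.29%). Of the 74, 4 had Ser2p, 4 had NELFA, and 30 had an H3K27ac peak within 1 kb.

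Farthest from any protein-coding gene were 2 neighbouring regions 203944 and 201294 bps from Lama2, a laminin gene at 0.0327 TPM in mESCs, with Ctr9 of 4.38 and 5.06. Next came a region 120634 bps from Zfp648, which was listed at 0 in both lines. It lay in the lincRNA gene A830008E24Rik, 2 bps from an annotated snoRNA gene, and 179957 bps from the nearest H3K27ac peak.

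Genes for long noncoding RNAs were touched by 51 regions (12.1%), against 7.74% of all Ctr9 peaks. No region touched an annotated snRNA, snoRNA or scaRNA gene, against 0.0670%, 0.286% and 0.0134% of all Ctr9 peaks, shares at which few or none would be found among 423. Genes for miRNAs were touched by 7 regions (1.65%), against 0.393% of all Ctr9 peaks, among them Mir142, Mir202 and Mir126a. The regions were wider than Ctr9 peaks at large (medians of 1240 and 391 bps), and the part of width in these shares was not tested.

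Levels of RNA were compared for the 313 protein-coding genes to which the summits were assigned, of which 312 were in the RNA tables. Their median in mESCs was 27.2 TPM (22.6 to 33.4) and 280 of them (89.7%) had at least 1 TPM, against 51.3% of all protein-coding genes, 86.1% of the genes of all Ctr9 peaks and 87.5% in the matched H3K27ac set. The median was 14.9 TPM at genes of Ctr9 peaks with the same exclusions and no Ser5p and 24.5 (20.1 to 31.0) at genes of the matched H3K27ac set. Regions within the bodies, starts and ends of genes and those up to 10 kb away had genes of 23.8 to 47.4 TPM in the median, and those beyond 10 kb 23.0. Regions with Ser2p and without it had genes of like level, 28.1 and 28.8 TPM.

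Between the lines, the genes of the regions were higher in mESCs. The log2 ratio of TPM + 1, mESCs against NIH3T3, had a median of 1.15 (0.83 to 1.46), against 0 for all protein-coding genes, 0.27 (0.24 to 0.29) for genes of peaks with the same exclusions and no Ser5p, and 1.21 (0.93 to 1.47) for the matched H3K27ac set, whose interval overlaps that of the regions. A ratio of at least 4 in favour of mESCs was found for 109 genes (34.9%, 29.7 to 40.5), against 5.34% of all protein-coding genes, 9.38% without Ser5p and 36.0% (31.5 to 40.7) in the matched H3K27ac set. A difference between the regions and that set was not detectable beyond counting error. The rule left out Ctr9 peaks that met a Ctr9 or H3K27ac peak of NIH3T3 cells, and when the H3K27ac set was not filtered in this way its median ratio was 0.48 (0.41 to 0.54) and its share 16.6% (14.6 to 18.7). Ctr9 peaks with Ser5p and no mESC H3K27ac, also not filtered in this way, had 580 genes. Their median ratio was 0.57 (0.46 to 0.73) and their share 22.9% (19.6 to 26.6), both lower than for the regions. With each line a single library, no test across replicates was possible.

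Among genes of regions near starts, 23 of 37 had a ratio of at least 4 (62.2%, 44.8 to 77.5). The share was 53 of 117 in bodies (45.3%, 36.1 to 54.8), 28 of 73 up to 10 kb away (38.4%), 21 of 69 near ends (30.4%, 19.9 to 42.7) and 13 of 60 beyond 10 kb (21.7%, 12.1 to 34.2). In NIH3T3 cells the genes of regions near starts had a median of 0.445 TPM, and those beyond 10 kb 7.37. Near a start, the rule left out regions with a Ctr9 or H3K27ac peak of NIH3T3 cells at that start. The shares by place are thus not independent of the rule, and its part in them was not tested. By width it was 35.8% (25.4 to 47.2) for regions of up to 500 bps and 42.0% (31.1 to 53.5) above 3 kb. Without Ser5p under the same exclusions it was 9.65% (8.95 to 10.4) and 26.7% (21.8 to 32.0), so in the widest class the intervals met. At genes of regions on SEs it was 30 of 48 (62.5%, 47.4 to 76.0), and at genes of the other regions 91 of 281 (32.4%, 26.9 to 38.2). In NIH3T3 cells 54 of the 312 genes were listed at 0.

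**Figure D5:**
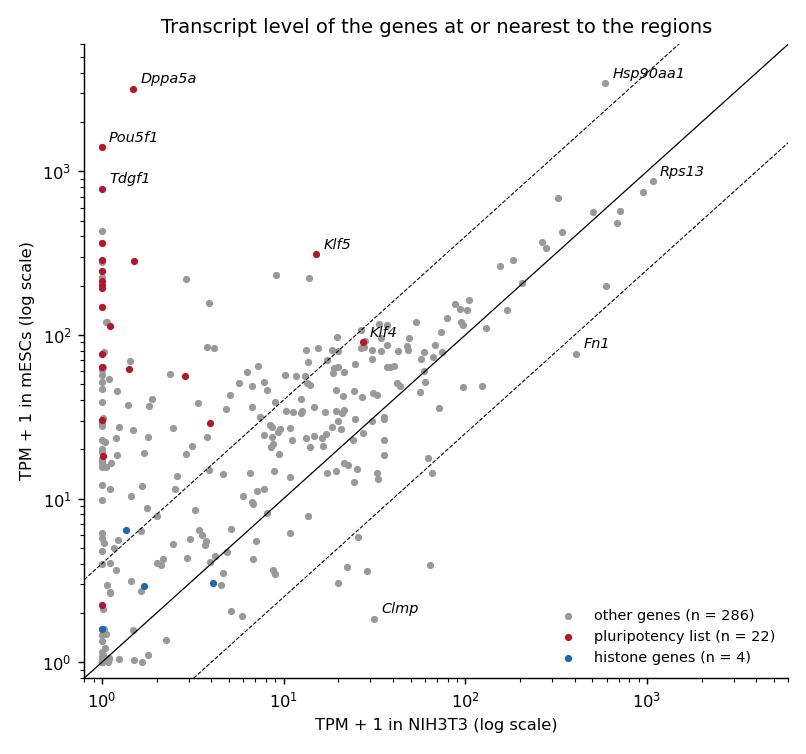
Transcript level of the 312 genes at or nearest to the regions, as TPM + 1 in NIH3T3 cells (horizontal) and mESCs (vertical), both on log scales, 1 point per gene. The solid line marks equal levels, the dashed lines a ratio of 4, and red and blue points are the 22 pluripotency and 4 histone genes. Most points lie above the solid line, 109 on or above the upper dashed line and 8 on or below the lower one.

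The genes of highest level were Hsp90aa1, a chaperone gene, with 3455 TPM in mESCs and 585 in NIH3T3 cells, Dppa5a with 3190.4 and 0.482, Pou5f1, Rps13 with 872 and 1071, and Tdgf1. In mESCs 8 genes (2.56%, 1.11 to 4.99) were lower by a ratio of at least 4, against 4.98% of all protein-coding genes and 2.92% of the genes of all Ctr9 peaks, both within the interval. The 6 with the largest ratios were Clmp, an adhesion molecule gene (0.843 and 30.6 TPM), Gng12, a G protein subunit gene (2.95 and 62.7), Gm45234 (2.62 and 27.6), Atrnl1 (2.03 and 18.98), Rcbtb2 (2.85 and 21.4) and Fn1, which codes for fibronectin (75.7 and 406). In all 6 the summit of a region lay in the gene body, with Ctr9 of 3.47 to 17.7, and Clmp had a further region with Ctr9 at 2.95. The region of Gm45234 also touched Atn1 and that of Rcbtb2 touched Rb1, so those genes share their regions with another.

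The sequence around the summits, 301 bases, had a median GC content of 48.8% (48.2 to 49.8), the same as for all Ctr9 peaks. The ratio of observed to expected CpG had a median of 0.264 (0.235 to 0.285), against 0.207 for all Ctr9 peaks and 0.254 (0.238 to 0.271) in the matched H3K27ac set. Near starts it was 0.434 (0.310 to 0.542) in the regions and 0.580 (0.489 to 0.684) in that set, with overlapping intervals. GGGCGG, the core of the GC box, was in 7.57% of the windows (5.23 to 10.5), against 7.79% of all Ctr9 peaks and 5.89% (4.16 to 8.06) in the matched H3K27ac set. CACGTG, an E-box, was in 7.57% against 5.13% of all, and the poly(A) signal letters AATAAA in 21.3% (17.5 to 25.5) against 20.9% of all and 27.8% (24.3 to 31.6) in that set. Matches to the octamer ATTTGCAT were in 3 regions (0.709%, against 1.17% of all Ctr9 peaks) and to TCAAGGTCA in 4 (0.946%, against 1.01%). These counts describe letters in short windows and say nothing of factor binding.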

How the data were processed

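The series has 12 samples. Peak lists or transcript tables of 9 of them were analysed, and inputs (3 samples) were not used here. ChIP-seq alignment by the authors was to mm10, with bowtie2 2.3.5.1, after which blacklisted reads were dropped. Peaks were called by the authors for each library alone (macs2 2.2.6, q-value threshold 0.01). The deposited lists give positions and summits, a fold enrichment (a ratio of the summit pileup to the local background), the −log10 of the p-value and q-value, and a score that is 10 times the −log10 q-value cut to a whole number. Transcripts of GENCODE M19 were quantified by the authors with kallisto 0.46.1, and the deposited tables hold estimated counts and TPM. ChIP-seq depth is unknown.

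From these files, Ctr9 peaks were joined to the other lists by an overlap of at least 1 bp. A summit was placed, in this order, within 1 kb of a gene start, within 1 kb of a gene end, in the gene body, or elsewhere up to or beyond 10 kb, on 21951 protein-coding genes of GENCODE M21. The gene of a region was the one with the nearest start within 1 kb of the summit, or else the nearest end within 1 kb. Failing both, it was the gene that held the summit, or else the nearest by body. A summit near the start or end of its assigned gene can thus lie inside another gene. A gene's TPM was that of its highest transcript, and ratios used TPM + 1, which understates the change of low genes. Sequence came from RefSeq for GRCm38.p6, of which no peak passed a chromosome end. SE coordinates came from the study's list. Python 3.11.15, pandas 2.3.3, NumPy 2.4.6, SciPy 1.17.1, pysam 0.24.0, samtools 1.23.1 and Matplotlib 3.10.9 were used, and 9 of 9 checks of the interval code passed on simulated data.

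The regions, gene lists and comparisons were chosen with earlier results of these data known. Named genes are those highest for Ctr9, Ser5p, Ser2p, NELFA, TPM or number of regions, those farthest from genes or at the thresholds, those with the lowest ratio, and those of the lists. Lrrc2 and the genes of noncoding RNAs were named after their values were seen. One locus that this rule names is not reported here. No test was run, since each group is 1 library.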

Additional observations from a re-analysis of the deposited data

How the results depend on the processing

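Of 71 alternatives, 40 stayed within the counting interval of the value (for the number of regions, within 1.5 times) and 31 moved outside it. None reversed the direction of a value itself, but the order of a set against the regions was not counted there. Of the 71, 57 were planned and 14 were added after the data were seen. The number of regions was 253 when the Ctr9 summit had to lie inside the Ser5p peak, 266 without H3K27ac of either line within 1 kb, and 758 when only mESC H3K27ac excluded a peak. The Ser2p share was 30.4% with the summit inside the Ser5p peak, 32.7% with no H3K27ac within 1 kb, 33.3% counting each Ser5p peak once, 31.1% counting regions within 10 kb once, and 1.64% in regions of at most 1 kb, where the direct cause is the loss of the wide regions that hold Ser2p. The NELFA share was 12.8% for a peak within 1 kb and 4.49% with its summit inside the Ctr9 peak. Windows of 500 bps gave shares of 4.96% at starts, 7.09% at ends, 44.2% in bodies and 43.7% away from genes. Windows of 2 kb gave 17.5%, 23.9%, 28.4% and 30.3%. With genes of every type, 14.4% lay at starts and 29.3% away. The median TPM was 44.4 when transcripts were summed, the median summit distance 225 bps to the strongest Ser5p peak, and the median GC content 50.5% and 48.2% in windows of 50 and 500 bps on each side. Filtering the set with Ser5p and H3K27ac on the NIH3T3 lists moved all 7 of its values, to 12.7% with Ser2p, 19.4% with NELFA, 7.68% near starts, 3.92% near ends, 37.4% beyond 10 kb, 26.8% on a SE and a median log2 ratio of TPM of 1.21. Against the regions, which stayed filtered, this changed the order for Ser2p, starts, places beyond 10 kb, SEs and the log2 ratio. The order for NELFA and for gene ends stayed the same. With the filter left off both sides, the 758 peaks had Ser2p at 36.7% against 26.5% in the H3K27ac set. Beyond 10 kb lay 12.5% against 16.4%, with overlapping intervals. Both orders were those found with the filter on both sides. Near starts the order was the other one, 15.0% against 37.0%. For SEs and the log2 ratio the intervals overlapped. For the regions, the median log2 ratio of TPM stayed between 1.16 and 1.45 under its 7 alternatives, all of which kept the NIH3T3 exclusions. Without these exclusions the 758 peaks had 580 genes with a median ratio of 0.57 (0.46 to 0.73), below the interval of the regions. The pseudocount does not enter the median TPM and was not varied there. No paired analysis was possible because each group is 1 library, and leaving out a replicate was not possible for the same reason. Absence of a peak depends on the depth of each ChIP-seq library, which is unknown, so a region listed without H3K27ac, Ser2p or NELFA may hold a level below the calling threshold.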
